A study of Bos taurus with 16 samples.

Results

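The translation initiation factors (eIFs) and elongation factors (eEFs) of cattle were followed on Affymetrix bovine arrays in endometrium and in blastocysts. They were taken as the probe sets with 1 gene symbol that begins with EIF or EEF and a digit, leaving out the eIF2 alpha kinases and EIF1AX. This gave 67 of 24128 probe sets, for 46 of the 9156 genes that the annotation names alone on a probe set. Of these, 6 are manufacturer's control probe sets along the EEF1A1 and EIF4E transcripts, which were described but not tested. Of the other 61, 53 probe sets (44 genes) reached a log2 signal above 4 on at least 2 endometrium arrays, and 51 (43 genes) did so on at least 2 blastocyst arrays. In endometrium 9 genes were represented by several such probe sets, which are called the first and the second below, in the order of their identifiers.

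The study brushed the uterus of 49 superovulated cows 2 h before insemination (day 0) and again just before embryos were flushed (day 7), so every group came from superovulated animals. A brush sample without neutrophils (PMN, polymorphonuclear cells) counted as healthy endometrium (HE), and one with any neutrophils as subclinical endometritis (SE). Samples of like status were pooled, and each array carries 1 pool: 3 HE and 3 SE pools of endometrium on day 0, 2 HE and 3 SE on day 7, and 2 HE and 3 SE pools of 10 blastocysts each. The blastocysts were grouped by the status of their donors at flushing. The number of cows per pool, and whether 1 cow gave brushings to pools of both days or of unlike status, is not given in the labels. The labels call the pools biological replicates, and the p-values measure the spread between pools.

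The labelled tissues carried marker transcripts of their cells, though some markers were found in both tissues. In endometrium 9 of 10 uterine epithelial marker genes were above the filter, with EPCAM between 13.19 and 14.55 on the log2 scale over the 4 groups. In blastocysts 5 of 6 trophectoderm markers (IFNT2, PAG2, KRT8, KRT18, TFAP2A) and 3 of 3 inner cell mass markers (POU5F1, SOX2, KLF4) were above it, and 0 of 5 neutrophil markers were. In blastocysts 8 of the 10 epithelial markers were also above the filter, with EPCAM between 14.37 and 14.65. KRT18, KLF4 and a further trophectoderm marker, ELF5, were above it in endometrium. The median log2 signal per array lay between 4.18 and 4.30 in endometrium and between 3.08 and 3.12 in blastocysts. On each blastocyst array at least 8483 probe sets shared the lowest value, 2.20, whereas no more than 1 did on an endometrium array, so levels were not compared between the tissues. The number of arrays, not a read depth, limits the precision here.

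Translation starts when eIF2, loaded with GTP and the initiator tRNA, joins the small ribosomal subunit with eIF1, eIF5 and the many-subunit eIF3, while eIF4E, eIF4G and the helicase eIF4A bring in the capped mRNA. The exchange factor eIF2B reloads eIF2 with GTP, and phosphorylated eIF2 blocks it, which is the step the stress kinases act on. During elongation eEF1A delivers aminoacyl-tRNA and is reloaded by the eEF1B subunits, and eEF2 moves the ribosome along the mRNA until it is phosphorylated by its kinase, EEF2K.

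The largest differences lay between day 0 and day 7, and they were of opposite sign within single complexes. In HE endometrium EEF1E1 rose 3.89-fold from day 0 to day 7, EEF2K, EIF4G3 and EIF2B3 rose between 2.06-fold and 2.80-fold, and EIF2B2, EIF3I and EIF2B1 fell 3.57-fold, 3.31-fold and 2.42-fold. In SE endometrium the same genes moved in the same directions. Over the 53 probe sets, 7 rose and 18 fell in HE (adjusted p below 0.05, limma's moderated test with Benjamini-Hochberg adjustment over all 13421 probe sets tested), and 28 did not pass. That is 13.2% rising and 34.0% falling, where 21.8% of all probe sets tested rose and 23.2% fell. In SE 8 rose and 14 fell, or 15.1% and 26.4%, against 26% and 24.1% of all probe sets. The share of members that changed in either direction, 47.2% in HE and 41.5% in SE, was near the share of all probe sets, 45% and 50.1%. The median difference was -0.28 on the log2 scale in HE and -0.19 in SE, where the medians of all probe sets tested were -0.03 and 0.01.

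The HE and SE contrasts between days compare separate arrays. Their p-values share an estimate of the spread from all 11 endometrium arrays, so they are not independent tests. In both, 17 probe sets passed, in the same direction each time, or 32.1% of the 53 where 38.6% of all probe sets tested did so. These 17 make up 68.0% of the probe sets that passed in HE and 77.3% of those that passed in SE, against 85.8% and 77% over all probe sets. Of them, 7 rose, for the 5 genes EEF1E1, EEF2K, EIF2B3, EIF4G3 and EIF3CL. The first probe set of EEF2K, which is in each of these counts of rising probe sets, was above the filter level on day 7 arrays alone and so had to differ. The other 10 fell, for the 9 genes EIF2B1, EIF2B2, EIF3I, EIF3L, EIF3M, EIF4A1, EIF4E2, EIF5 and EEF1B2. A further 8 passed in HE alone and 5 in SE alone. The test of the difference itself, the interaction of status and day, called 0 of the 53 (0% of all probe sets tested), with an adjusted p of 1.0 for each of them, so no change with the day was shown to differ between HE and SE. At an unadjusted p below 0.05 the interaction held 1 member (the second probe set of EIF4E2), and 3.92% of all probe sets. With the second HE pool of day 7 left out, 14 probe sets (5 rising, 9 falling) passed in HE in place of 25.

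**Figure D1:**
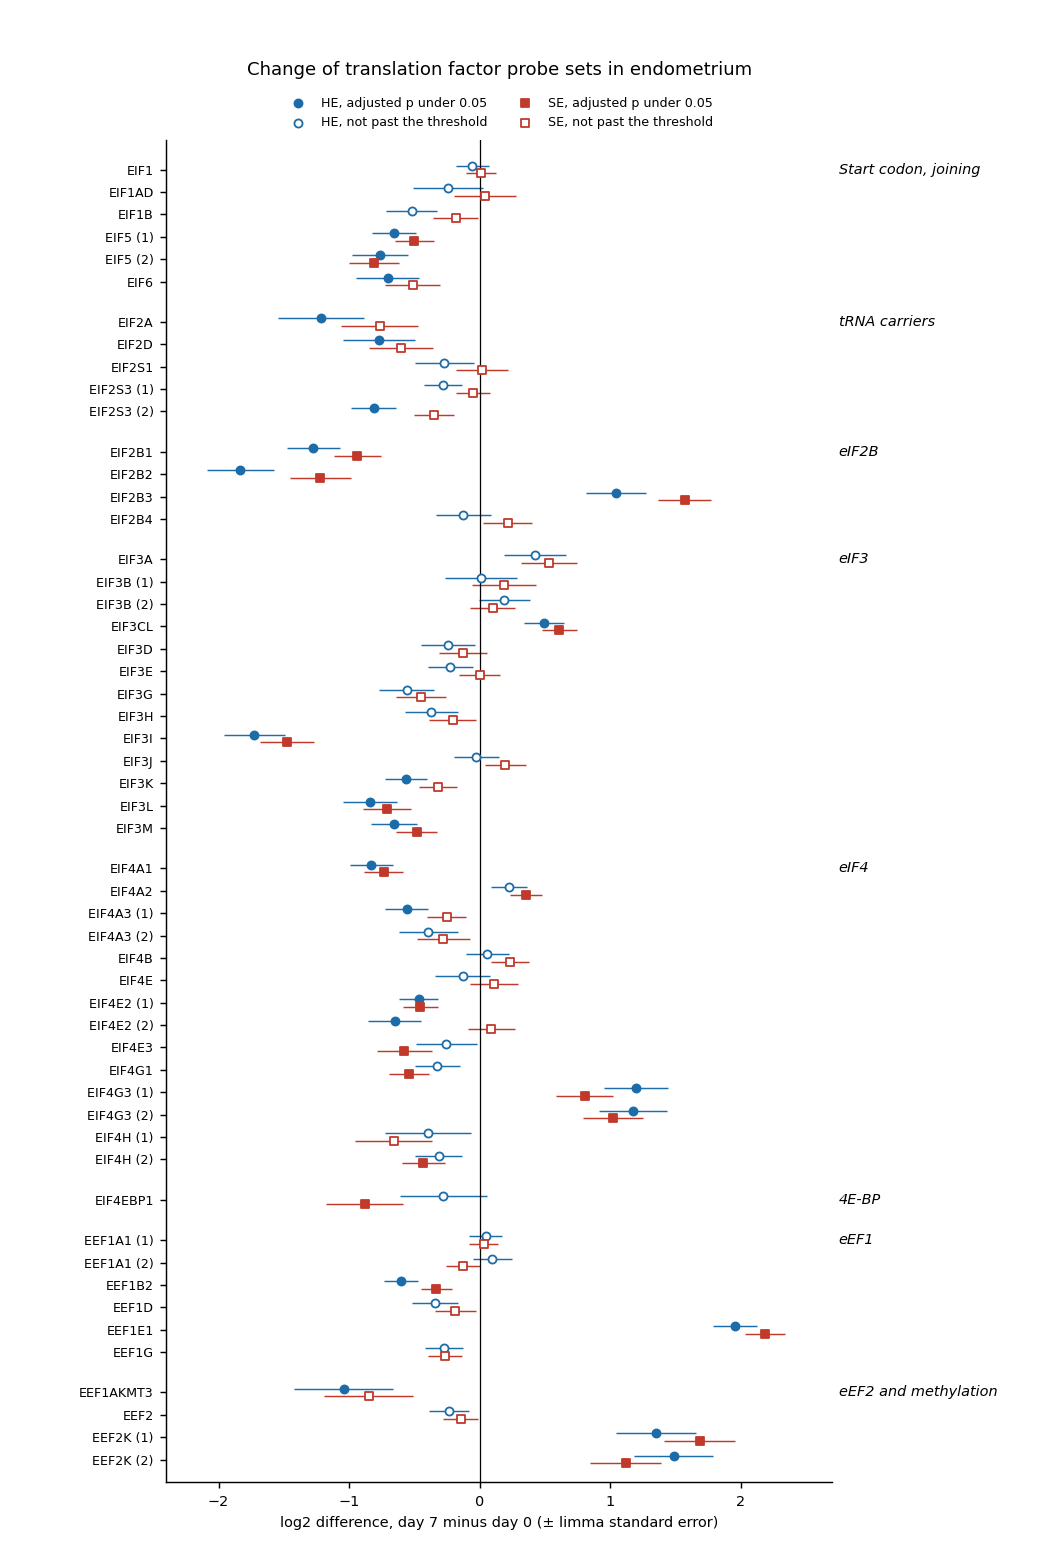
Log2 difference between day 7 and day 0 (horizontal axis, with limma's standard error) for the 53 endometrium probe sets, in HE (blue circles) and SE (red squares), grouped by role; filled symbols passed an adjusted p of 0.05, and numbers in brackets separate probe sets of 1 gene. EEF1E1, EIF2B3, EIF4G3 and EEF2K lie to the right in both groups and EIF2B1, EIF2B2 and EIF3I to the left.

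On the side of start codon choice and subunit joining, 3 of 6 probe sets fell in HE and 2 in SE, and none rose. EIF5, which triggers GTP hydrolysis by eIF2 at the start codon, fell by 2 probe sets. The second probe set stood at 10.31, 10.00 and 10.06 on the day 0 HE arrays and at 9.17 and 9.55 on day 7. In SE it stood at 9.93, 10.01 and 10.12 on day 0 and at 8.82, 9.29 and 9.52 on day 7. Neither pair of groups overlapped. The change was -0.76 (standard error 0.22, adjusted p = 0.0165 by limma) in HE and -0.81 (standard error 0.19, adjusted p = 0.00609) in SE. The first probe set of EIF5 fell by 0.65 and 0.50 in turn. EIF6, which keeps the large subunit from joining too early, fell by 0.71 in HE (adjusted p = 0.0349), and its value in SE, -0.51, did not pass (adjusted p = 0.0691). EIF1, which guards the choice of start codon, differed by -0.06 in HE and 0.01 in SE, with 95% intervals from -0.34 to 0.23 and from -0.25 to 0.26. EIF1B, a near copy of EIF1, gave -0.52 in HE (adjusted p = 0.0524) and -0.18 in SE, and EIF1AD gave -0.24 and 0.04. In HE the call of either EIF5 probe set ended without the first HE pool of day 7 (adjusted p = 0.0596 and 0.131), that of the second also without the first HE pool of day 0 (adjusted p = 0.0554), and that of EIF6 without any of 4 pools (adjusted p up to 0.132). In SE the first probe set of EIF5 lost its call without the third pool of day 0 or the first of day 7 (adjusted p = 0.0647 each).

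Among the carriers of initiator tRNA, 3 of 5 probe sets fell in HE and 0 of 5 in SE. EIF2A, a separate factor that can bring in initiator tRNA without eIF2, stood at 8.10, 7.78 and 8.26 on the HE arrays of day 0 and at 6.74 and 6.92 on those of day 7. On the SE arrays it stood at 7.85, 7.98 and 7.72 on day 0 and spread from 6.41 to 7.80 on day 7, so that the SE groups overlapped. The change of EIF2A was -1.21 (standard error 0.33, adjusted p = 0.0134) in HE and -0.77 (standard error 0.30, adjusted p = 0.0537) in SE. EIF2D, which can also deliver tRNA to the ribosome, fell by 0.77 in HE (adjusted p = 0.0421), and its -0.60 in SE did not pass (adjusted p = 0.0648). Of eIF2 itself, the alpha and gamma subunits were measured. EIF2S1, the alpha subunit that the stress kinases phosphorylate, differed by -0.27 in HE and 0.02 in SE (adjusted p = 0.36 and 0.943). For EIF2S3, the gamma subunit, the second probe set fell by 0.81 in HE (adjusted p = 0.00371), whereas the first gave -0.28 (adjusted p = 0.15), so the probe sets of this gene disagree on the call. In SE the second gave -0.35 (adjusted p = 0.0833) and the first -0.05 (adjusted p = 0.761). The call of EIF2A ended without the first HE pool of day 7 (adjusted p = 0.0758) and that of EIF2D without any of 6 of the 11 pools (adjusted p up to 0.315).

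The subunits of eIF2B moved apart. EIF2B1 and EIF2B2 encode the alpha and beta subunits, which form its regulatory part with the delta subunit EIF2B4, and EIF2B3 encodes the gamma subunit of its catalytic part. EIF2B2 stood at 10.999, 10.61 and 10.62 on the HE arrays of day 0 and at 8.86 and 8.96 on day 7. In SE it stood at 10.72, 9.94 and 10.52 on day 0 and at 8.87, 9.50 and 9.15 on day 7. Every day 7 array thus lay below every day 0 array, and EIF2B2 fell by 1.83 (standard error 0.26, adjusted p = 0.000301) in HE and by 1.22 (standard error 0.23, adjusted p = 0.00157) in SE.

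EIF2B1 stood at 7.69, 7.41 and 7.49 on day 0 and at 6.53 and 5.98 on day 7 in HE. In SE it stood at 7.44, 7.04 and 7.42 on day 0 and at 6.22, 6.40 and 6.47 on day 7. Here too the days did not overlap, with a fall of 1.27 (standard error 0.20, adjusted p = 0.000687) in HE and of 0.94 (standard error 0.18, adjusted p = 0.0019) in SE. EIF2B3 went the other way, from 7.84, 7.29 and 7.41 to 8.78 and 8.34 in HE and from 7.35, 6.96 and 7.50 to 8.70, 8.82 and 8.998 in SE. It was higher on every day 7 array than on any day 0 array, by 1.04 (standard error 0.23, adjusted p = 0.00443) in HE and 1.57 (standard error 0.21, adjusted p = 0.000143) in SE. EIF2B4 gave -0.12 in HE and 0.22 in SE, with adjusted p-values of 0.662 and 0.363. The epsilon subunit was not analysed here.

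**Figure D2:**
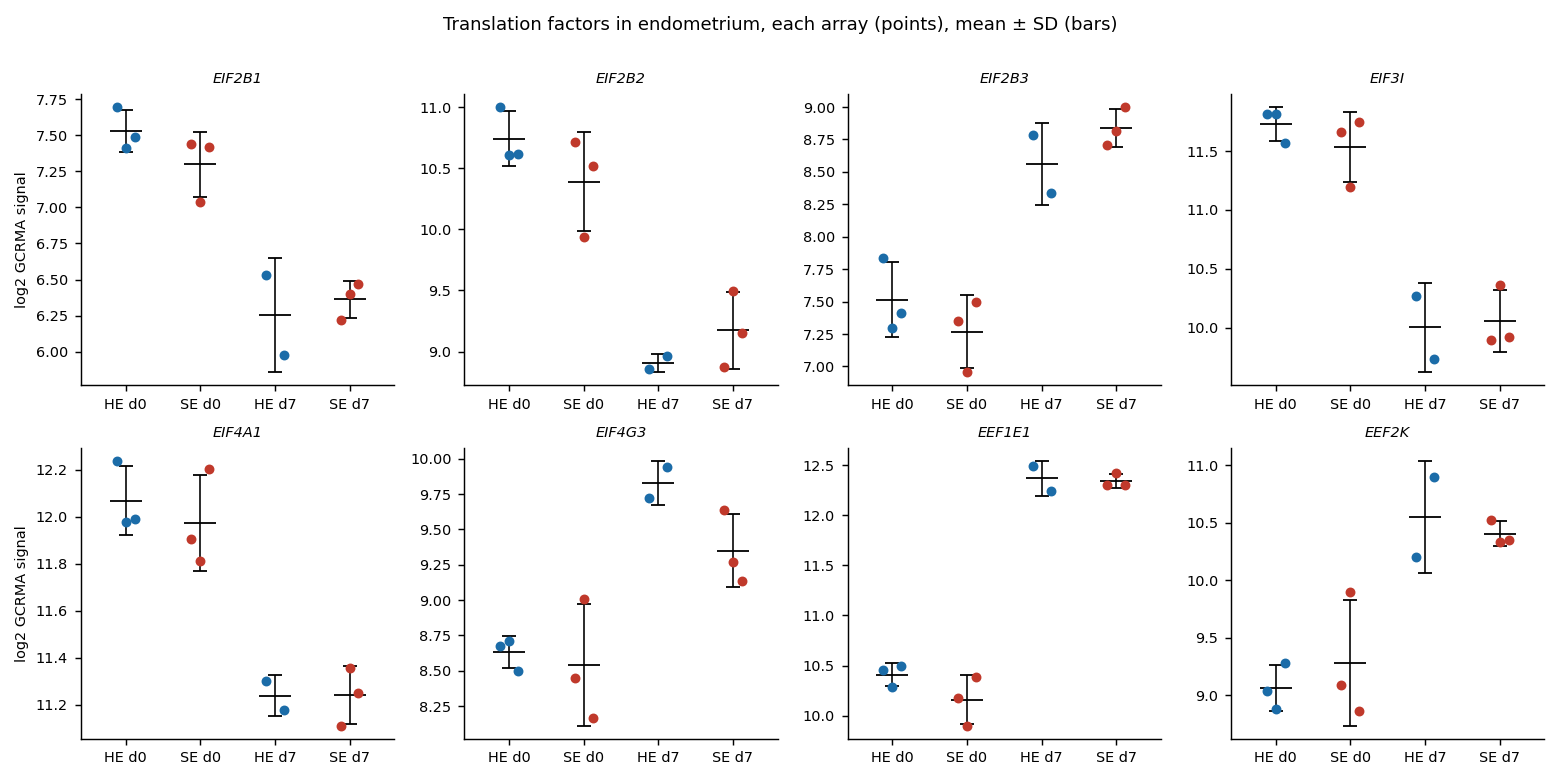
Log2 GCRMA signal of 8 translation factors on each of the 11 endometrium arrays (points) by status and day (d0, d7), with the mean and SD of each group (bars); the second probe set of EEF2K and the first of EIF4G3 are drawn. Each vertical axis has its own range and does not start at 0. In each panel the day 7 arrays lie apart from the day 0 arrays, above them for EIF2B3, EIF4G3, EEF1E1 and EEF2K and below them for the other 4.

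Of the eIF3 scaffold, which holds the initiation complex together on the small subunit, 13 probe sets for 12 subunit genes were tested. In HE 4 of these fell and 1 rose, and in SE 3 fell and 1 rose, so most subunits did not pass in either. EIF3I stood apart in size within the complex. It was at 11.81, 11.81 and 11.57 on day 0 and at 10.27 and 9.74 on day 7 in HE, and at 11.66, 11.20 and 11.75 on day 0 and at 9.89, 10.36 and 9.92 on day 7 in SE. No day 7 array reached a day 0 array. The fall was 1.73 (standard error 0.24, adjusted p = 0.000243) in HE and 1.48 (standard error 0.21, adjusted p = 0.000256) in SE.

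EIF3L fell by 0.84 in HE and 0.71 in SE (adjusted p = 0.00786 and 0.00947), and EIF3M by 0.66 and 0.48 (adjusted p = 0.0119 and 0.0268). EIF3K, which pairs with EIF3L in the complex, fell by 0.56 in HE (adjusted p = 0.0176), while its -0.32 in SE did not pass (adjusted p = 0.0964). The probe set annotated to EIF3CL rose by 0.49 in HE and 0.61 in SE (adjusted p = 0.0228 and 0.00389). EIF3CL is a near copy of EIF3C, and the files do not show which of these genes the probe set reads. EIF3A, the largest subunit, gave 0.42 and 0.53 (adjusted p = 0.172 and 0.0592). EIF3G gave -0.56 and -0.45 (adjusted p = 0.0549 and 0.0742). EIF3B, EIF3D, EIF3E, EIF3H and EIF3J stayed between -0.37 and 0.20 in both groups and did not pass. In HE the calls of EIF3L, EIF3M, EIF3K and EIF3CL ended without the second HE pool of day 7 (adjusted p = 0.0599, 0.105, 0.115 and 0.146). Those of EIF3K and EIF3CL also ended without the second HE pool of day 0, and that of EIF3CL without the first (adjusted p between 0.052 and 0.0605). In SE that of EIF3M ended without any of 5 pools (adjusted p up to 0.0923).

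The cap-binding eIF4 group was mixed, with 2 of 14 probe sets rising and 4 falling in HE and 3 rising and 5 falling in SE. EIF4A1, the main RNA helicase of initiation, stood at 12.24, 11.98 and 11.99 on day 0 and at 11.30 and 11.18 on day 7 in HE. In SE it stood at 11.91, 11.81 and 12.20 on day 0 and at 11.11, 11.36 and 11.25 on day 7. The days did not overlap in either, and EIF4A1 fell by 0.83 (standard error 0.17, adjusted p = 0.0026) in HE and 0.74 (standard error 0.15, adjusted p = 0.00231) in SE. Its paralog EIF4A2 rose by 0.35 in SE (adjusted p = 0.0366), with 0.22 in HE (adjusted p = 0.216). EIF4A3, a related helicase that marks exon junctions, fell by 0.56 in HE on its first probe set (adjusted p = 0.0194), while the second gave -0.39 (adjusted p = 0.187). EIF4H fell by 0.43 in SE on its second probe set (adjusted p = 0.0481), and EIF4B, which also stimulates the helicase, gave 0.06 in HE and 0.23 in SE without passing. Leaving out 1 pool ended the call of EIF4A3 for 2 of the 11 pools, the first of HE on day 0 and the second of HE on day 7 (adjusted p = 0.059 and 0.123). It ended that of EIF4A2 for 5 pools (adjusted p up to 0.102) and that of EIF4H for 10 (adjusted p up to 0.162).

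EIF4G3, a scaffold that bridges the cap-binding protein and eIF3, rose on both of its probe sets. The first went from 8.68, 8.71 and 8.50 to 9.72 and 9.94 in HE, and from 8.45, 9.01 and 8.17 to 9.64, 9.27 and 9.14 in SE. The day 7 arrays lay above the day 0 arrays in both, by 1.20 (standard error 0.24, adjusted p = 0.00295) and 0.81 (standard error 0.22, adjusted p = 0.0117). The second gave 1.17 in HE and 1.02 in SE, and its call in HE ended without the second HE pool of day 7 (adjusted p = 0.0553). EIF4G1, the paralogous scaffold, fell by 0.54 in SE (adjusted p = 0.0138), and its -0.32 in HE did not pass (adjusted p = 0.151).

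EIF4E, the cap-binding protein itself, differed by -0.13 in HE and 0.11 in SE (adjusted p = 0.641 and 0.651). Its relative EIF4E2, which binds the cap without recruiting eIF4G, fell on its first probe set by 0.47 in HE and 0.45 in SE (adjusted p = 0.0258 and 0.016), and on its second by 0.65 in HE (adjusted p = 0.0242), with 0.09 in SE (adjusted p = 0.707). EIF4E3, a further relative of EIF4E, fell by 0.58 in SE (adjusted p = 0.043), and its day 0 and day 7 arrays overlapped there. EIF4EBP1, the repressor that sequesters eIF4E when mTOR is inactive, stood at 8.04, 8.38 and 7.66 on the SE arrays of day 0 and at 6.96, 7.42 and 7.06 on day 7. It fell there by 0.88 (standard error 0.30, adjusted p = 0.0315). In HE it ran from 7.46 to 8.18 on day 0 and was at 8.09 and 7.09 on day 7, with a difference of -0.28 (standard error 0.33, adjusted p = 0.531) whose sign turned to 0.22 without the second HE pool of day 7. Without 1 pool, the call of EIF4E3 in SE ended for 9 of the 11 pools (adjusted p up to 0.128), that of EIF4EBP1 in SE for 4 (adjusted p up to 0.0986), and those of EIF4E2 in HE for 4 on the first and 2 on the second probe set (adjusted p up to 0.202 and 0.156). In SE that of EIF4E2 ended for 1, the first SE pool of day 7 (adjusted p = 0.0566).

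In the eEF1 group the largest change of all members fell to EEF1E1, which despite its name is a scaffold subunit (AIMP3) of the multi-synthetase complex rather than an elongation factor. EEF1E1 went from 10.45, 10.29 and 10.49 on day 0 to 12.49 and 12.24 on day 7 in HE, and from 10.18, 9.90 and 10.39 to 12.30, 12.43 and 12.30 in SE. The lowest day 7 array lay far above the highest day 0 array. The rise was 1.96 (standard error 0.17, adjusted p = 1.42e-05) in HE and 2.19 (standard error 0.15, adjusted p = 2.36e-06) in SE, or 4.55-fold. EEF1B2, an exchange subunit that reloads eEF1A, fell by 0.60 in HE (adjusted p = 0.0043) and 0.33 in SE (adjusted p = 0.038), where the call ended without any of 7 of the 11 pools (adjusted p up to 0.13). EEF1D and EEF1G, the other eEF1B subunits tested, ranged from -0.34 to -0.19 and did not pass. The probe sets of EEF1A1, the tRNA carrier, gave between -0.13 and 0.10 and did not pass. EEF1A2, the form known from muscle and neurons, stayed at or below 2.10 on every endometrium array and was not tested.

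EEF2, the translocase, gave -0.24 in HE and -0.15 in SE (adjusted p = 0.235 and 0.396), while its inhibitory kinase EEF2K rose on both probe sets. The second went from 9.03, 8.88 and 9.28 to 10.20 and 10.89 in HE and from 9.09, 9.90 and 8.86 to 10.53, 10.33 and 10.35 in SE. No day 0 array reached a day 7 array of the same status, although the second SE pool of day 0 lay well above its fellows. The rise was 1.49 (standard error 0.30, adjusted p = 0.00299) in HE and 1.12 (standard error 0.27, adjusted p = 0.00655) in SE. The first, which was at or below 3.96 on all day 0 arrays and so passed the filter only through the day 7 arrays and had to differ, gave 1.35 in HE and 1.68 in SE. EEF1AKMT3, a methyltransferase of eEF1A, fell by 1.04 in HE (adjusted p = 0.0476) and gave -0.85 in SE (adjusted p = 0.0618), at signals of 5.52 or less. Its call ended without any of 7 pools (adjusted p up to 0.239).

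Other genes that act with these factors were counted in the same fit, in 7 lists. Of all probe sets tested, 21.8% rose and 23.2% fell in HE, and 26% rose and 24.1% fell in SE. A change on a list is thus not in itself particular to it. Of 9 partners of the cap complex, 3 rose in each of HE and SE, while 4 fell in HE and 3 in SE. PDCD4, an inhibitor of eIF4A, rose by 2.20 in HE and 2.40 in SE (adjusted p = 6.25e-06 and 1.21e-06). MKNK1, the kinase of eIF4E, rose by 1.11 and 1.38. PAIP1 and PABPC4, which link the poly(A) tail to the cap complex, fell, PAIP1 by 0.87 and 0.55 and PABPC4 by 0.58 and 0.54. Of 13 genes of the mTOR pathway, 5 rose in each, 2 fell in HE and 1 fell in SE. RHEB, the activator of mTOR, rose by 1.77 and 1.81, and TSC1, a subunit of the complex that restrains RHEB, by 1.69 and 1.27.

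Of 9 genes of the integrated stress response, 3 rose and 1 fell in HE, and 2 rose and 3 fell in SE. NUPR1, a stress-induced nuclear protein, rose by 6.15 and 5.92 (adjusted p = 2.36e-05 and 1.05e-05), and DDIT3, a transcription factor of that response, by 0.84 and 1.01. ATF4, the factor translated when eIF2 is phosphorylated, fell by 0.50 in HE (adjusted p = 0.0454) and gave -0.37 in SE (adjusted p = 0.0843). Of 18 cytosolic aminoacyl-tRNA synthetase genes and partners, 1 rose and 7 fell in HE, and 1 rose and 5 fell in SE, where the list's medians were -0.44 and -0.31. AARS1 rose by 1.07 and 1.10, and TARS1 fell by 1.42 and 1.28. Of 10 genes of termination, recycling and tRNA selection, none rose, 3 fell in HE and 4 in SE, and the release factor GSPT1 fell by 1.30 and 1.07. Of 5 genes that modify translation factors, 2 rose in HE and 3 in SE, among them METTL13, a methyltransferase of eEF1A, by 1.57 and 1.83, and none fell. Of 9 mitochondrial translation factors 3 rose and 3 fell in each. None of the genes on these lists passed in the comparisons of SE with HE.

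Cell type markers also moved between the days, and not all genes of a list moved alike. The summed signal of the 9 epithelial markers, in which EPCAM weighs most, ran from 15.18 to 15.64 (log2) over the day 0 arrays and from 13.99 to 14.29 over the day 7 arrays. In HE 6 of the 9 were lower on every day 7 array and 2, CDH1 and CLDN3, were higher, and in SE 8 were lower. The summed signal of the 4 neutrophil markers measured (S100A8, S100A9, S100A12, IL1B) ran from 10.39 to 12.08 in HE and from 11.92 to 14.54 in SE on day 0, and from 7.60 to 9.90 and from 8.18 to 9.75 on day 7. The 7 macrophage markers ran from 8.86 to 9.22 in HE and from 9.30 to 10.52 in SE on day 0, and from 9.55 to 9.90 and from 9.21 to 10.15 on day 7. In HE 5 of these were higher on every day 7 array and CD14 was lower. CSF1R, among the 5, was at or below 3.63 on all day 0 arrays. It passed the filter through day 7 arrays alone, so its rise was set by the filter. Of the 6 lymphocyte markers 5 were higher on every HE array of day 7 and LCK was lower, while in SE 1, CD8A, was higher and the other 5 overlapped. The 8 stromal markers overlapped between the days in HE, and in SE 1 of them, MGP, was lower on every day 7 array. The part of these shifts in the changes of the translation factors was not tested. In such bulk samples fewer cells of a type and less RNA per cell cannot be told apart.

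The comparison of SE with HE, the question the series was designed around, gave no call among these genes. On day 0, 0 of 53 probe sets passed by limma, where 0.0224% of all probe sets tested did. At an unadjusted p below 0.05 it held 1 member, against 7.6% of all probe sets. That member was EIF4E3, at 8.44, 8.40 and 8.50 in HE and at 8.91, 9.49 and 8.60 in SE. Its groups did not overlap, and it was higher in SE by 0.55 (standard error 0.21, adjusted p = 0.61), with a 95% interval from 0.09 to 1.02. Without the second SE pool the difference was 0.31 (adjusted p = 0.805). In all, 6 members did not overlap between SE and HE on day 0, 1 higher and 5 lower, against 3.58% and 9.24% of all probe sets. The lower ones were EIF3CL, EIF4B, the first probe sets of EIF2S3 and EEF2K and the second of EIF4E2, between -0.31 and -0.18, with adjusted p-values from 0.745 to 0.817. That EEF2K probe set stayed below the filter level on all day 0 arrays, at 3.96 or less. The other probe sets of these genes overlapped, at 0.22 for EEF2K, -0.10 for EIF2S3 and 0.02 for EIF4E2.

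On that day 44 of the 53 probe sets were lower in SE and 9 higher, so that 83.0% were lower where 61.1% of all probe sets were. The median difference was -0.15, against -0.06 over all probe sets. A single pool carried much of it: the second SE pool was the lowest of the 6 day 0 arrays for 34 members, or 64.2% (30.8% of all probe sets). Without that pool 37 members were lower and 16 higher, or 69.8% lower where 60.7% of all probe sets were, and the median was -0.04 against -0.05. That pool also stood apart in measures of the array itself. Over the probe sets kept it correlated by 0.961 on average with the rest of day 0, where each of the other 5 arrays reached 0.9752 or more, and its control probe sets had the widest gap between the 3' and the 5' end of the day 0 arrays for EIF4E (4.27), cyclophilin (1.17) and GAPDH (0.58, against at most 0.14). The part of these in the low values was not tested. The first probe set of EIF3B shows the pattern, with 8.81, 8.73 and 8.65 in HE and 8.55, 7.71 and 8.87 in SE. The first probe set of EIF4H, a stimulator of eIF4A, shows it too, with 8.14, 8.08 and 8.15 in HE and 8.18, 7.12 and 8.36 in SE. The lean on day 0 was not particular to these factors. Lower in SE were 9 of 9 mitochondrial translation factors, 15 of 18 synthetase genes, 8 of 9 cap complex partners and 7 of 10 termination genes. It was 4 of 5 modifiers and 6 of 9 stress response genes, but 6 of 13 mTOR pathway genes. Some cell type markers were higher in every SE than in any HE pool of day 0. These were 3 of 3 ciliated cell markers, with sums from 7.83 to 8.79 in HE and from 9.19 to 10.60 in SE (log2), and 3 of 7 macrophage markers (AIF1, LAPTM5, FCER1G). Of the 9 epithelial markers it was 3, KRT18, CDH1 and CLDN3, and none was lower in every SE pool. The epithelial sums overlapped. Of 6 lymphocyte markers it was 1, JCHAIN, the joining chain of plasma cell antibodies, at 8.71 to 9.84 in HE and 10.94 to 11.91 in SE. FCER1G stayed below the filter level on all day 0 arrays, at 3.06 to 3.54 in HE and 3.56 to 3.60 in SE. Each of the 4 neutrophil and 8 stromal markers overlapped, with a higher mean in SE. The neutrophil sums overlapped too, but the stromal sums lay apart, at 11.81 to 13.20 in HE and 13.26 to 13.76 in SE. So did the macrophage sums, at 8.86 to 9.22 and 9.30 to 10.52, and the lymphocyte sums, at 9.72 to 10.34 and 11.23 to 12.03. The part of these markers in the differences was not tested.

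On day 7, 0 of 53 passed (0% of all probe sets tested), 30 were higher in SE (56.6%, against 50.5% of all probe sets) and 23 lower, and the median was 0.02 against 0.00 over all probe sets. These signs turned with single pools: 22 were higher without the second SE pool (median -0.06) and 23 without the second HE pool (-0.07), but 35 without the first HE pool (0.10). Of the 9 epithelial markers 4 (CDH1, CLDN3, CLDN4, ESRP1) were lower in every SE than in any HE pool of that day. CDH1 and CLDN3 had been higher in every SE pool on day 0. The part of the markers was not tested. At an unadjusted p below 0.05 it held 1 member, where 3.55% of all probe sets stood. It was EIF4E2 on its second probe set, at 8.07 and 7.82 in HE and at 8.13, 8.66 and 8.43 in SE, higher by 0.46 (standard error 0.20, adjusted p = 1.0). Its 95% interval ran from 0.01 to 0.91. The first probe set of the gene read 6.89 and 6.60 in HE and 6.61, 6.87 and 6.85 in SE, with overlap. EIF4G3, on its first probe set, had the smallest p among the lower members, with -0.48 (standard error 0.24, adjusted p = 1.0) and no overlap between 9.72 and 9.94 in HE and the highest SE array at 9.64. In all 6 members were higher and 4 lower without overlap, against 7.93% and 8.33% of all probe sets.

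**Figure D3:**
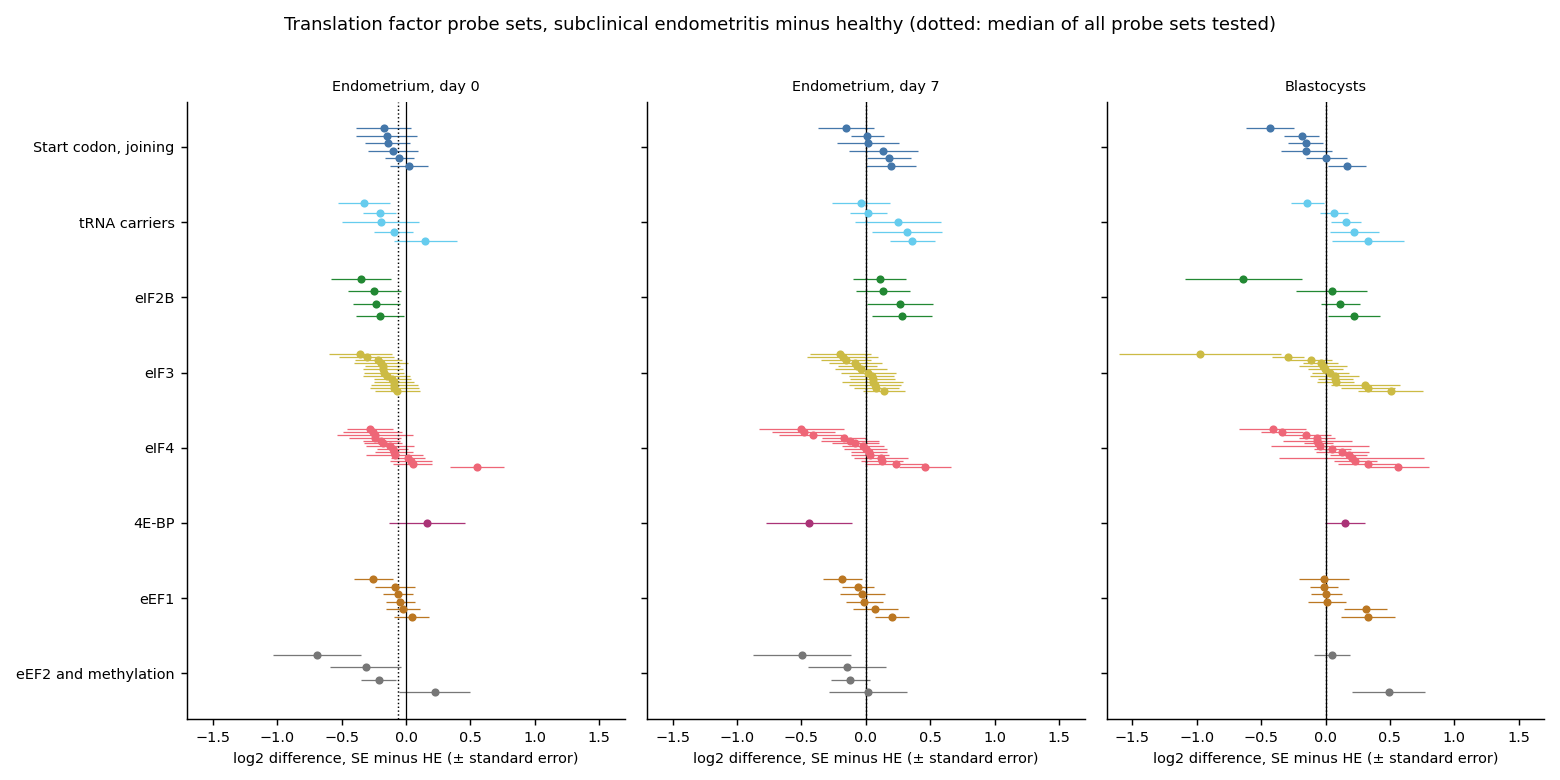
Log2 difference between SE and HE (horizontal axis, with the standard error) for each probe set in endometrium on day 0 and day 7 and in blastocysts, in rows by role; the dotted line is the median of all probe sets tested in that comparison. No probe set passed an adjusted p of 0.05, and on day 0 most points lie left of 0.

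The precision sets what these comparisons could show. The 95% interval of a member's difference reached a median of 0.41 to either side on day 0 and 0.45 on day 7. On day 0, 51 of 53 intervals lay wholly between -1 and 1, and on day 7, 49 of 53. For those members a 2-fold difference in either direction lay outside the interval.

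In blastocysts 0 of 51 probe sets passed (0% of all 11014 tested). At an unadjusted p below 0.05 it was 0 as well, where 9.34% of all probe sets stood. Of the 51, 30 were higher in SE (58.8%, against 51.5% of all probe sets) and 21 lower, with a median of 0.05. The median was 0.10 without the first SE pool and 0.009 without the second, and between 27 and 36 were higher with 1 pool left out. The median 95% half-width was 0.44, and 41 of the 51 intervals lay between -1 and 1. The groups of 2 and 3 pools did not overlap for 5 members that were higher and 4 that were lower, against 12.4% and 12.6% of all probe sets. The summed trophectoderm markers ran from 13.92 to 14.00 in HE and from 13.42 to 14.53 in SE, and the inner cell mass markers from 13.93 to 14.04 and from 13.33 to 14.11, so both sums overlapped. Single genes did not: TFAP2A ran from 5.66 to 6.64 in HE and from 7.36 to 8.04 in SE, and POU5F1 from 10.42 to 10.97 in HE and from 9.69 to 10.36 in SE. The 4 hypoblast markers ran from 15.29 to 15.34 in HE and from 15.36 to 15.62 in SE. Of 9 lymphocyte markers 2 reached the filter. LCK ran from 3.34 to 6.63 in HE and from 7.85 to 8.35 in SE, and GZMB reached it through the HE pools alone, so that its groups had to lie apart. The part of these markers in the differences was not tested.

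The members with the smallest p among the lower ones were EIF3G, EIF5 and EIF4B. EIF3G, a subunit of eIF3 that binds RNA, stood at 12.95 and 12.84 in HE and at 12.57, 12.69 and 12.55 in SE. The difference was -0.29 (standard error 0.12, adjusted p = 0.567). EIF5 on its second probe set stood at 9.86 and 10.13 in HE and at 9.33, 9.69 and 9.69 in SE, a difference of -0.43 (standard error 0.19, adjusted p = 0.579). EIF4B, which stimulates the helicase eIF4A, stood at 11.43 and 11.72 in HE and at 11.10, 11.34 and 11.29 in SE, a difference of -0.34 (standard error 0.16, adjusted p = 0.59). On these probe sets all of them were lower in every SE pool than in either HE pool, and none passed the test. The first probe set of EIF5 overlapped, at 11.99 and 12.14 in HE and at 11.93, 12.01 and 11.79 in SE.

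Among the higher ones EIF4H, EIF3D and EEF1A1 came first. EIF4H, on a probe set that stayed at or below 1.93 in endometrium, stood at 5.05 and 4.42 in HE and at 5.36, 5.12 and 5.42 in SE, 0.56 higher (standard error 0.24, adjusted p = 0.573). EIF3D, an eIF3 subunit that can bind the cap itself, stood at 10.72 and 10.48 in HE and at 10.96, 11.51 and 10.85 in SE, 0.51 higher (standard error 0.25, adjusted p = 0.595). EEF1A1 on its first probe set stood at 14.23 and 14.37 in HE and at 14.67, 14.78 and 14.39 in SE, 0.31 higher (standard error 0.17, adjusted p = 0.603). These groups did not overlap either, and the interval of each difference included 0. Other probe sets of these genes did not lie apart. The first of EIF4H had means of 4.57 in HE and 4.53 in SE. Its second reached 9.70 in HE and began at 9.70 in SE. The second of EEF1A1 stood at 11.93 and 12.46 in HE and began at 12.39 in SE.

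**Figure D4:**
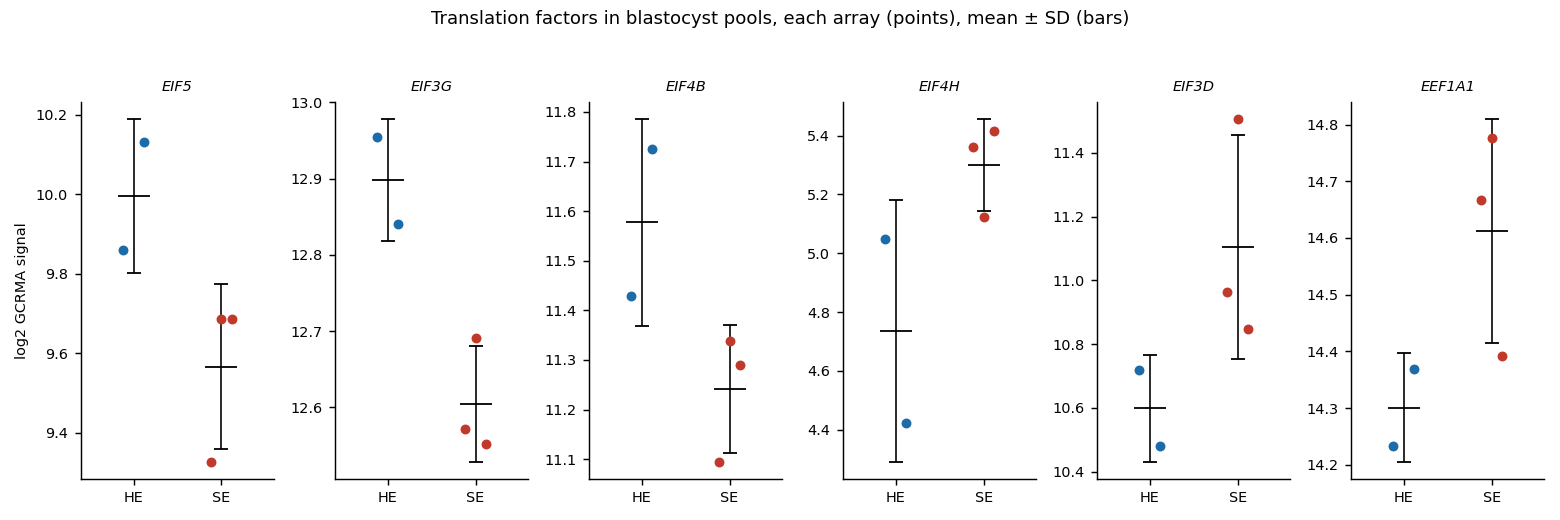
Log2 GCRMA signal of 6 translation factors in the 2 HE and 3 SE blastocyst pools (points), with the mean and SD of each group (bars). These members had the smallest p in each direction; their groups lie apart but none passed an adjusted p of 0.05, and each vertical axis has its own range.

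The genes that changed most with the day in endometrium did not pass between SE and HE in blastocysts. EEF1E1 stood at 10.89 and 10.92 in HE and at 10.85, 10.80 and 11.11 in SE, and EIF2B2 at 10.92 and 10.82 in HE and at 10.44, 11.09 and 11.22 in SE. EIF2B1 spread most, from 7.41 to 8.77 in SE with 8.48 and 8.97 in HE. In each of them the groups overlapped. EEF2K, the elongation kinase, did not reach the filter in blastocysts, and EEF2KMT, a methyltransferase of eEF2, reached it in blastocysts alone. For 12 of the 51 members at least 2 blastocyst arrays held exactly the same value, as for 30.1% of all probe sets tested, against 6 of 53 and 13.6% in endometrium. For EEF2KMT, EIF4G1 and 1 probe set each of EIF3B and EIF4A3, 3 or more arrays were equal.

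The control probe sets read separate stretches of the EIF4E and EEF1A1 transcripts, and the gap between the 3' and the 5' probe set was compared between arrays of 1 tissue. In endometrium the EIF4E gap was 3.70 to 3.85 in HE and 3.88 to 4.27 in SE on day 0, and 3.67 to 3.91 in HE and 4.05 to 4.52 in SE on day 7 (log2). It was wider on every SE array than on any HE array of the same day. The other controls did not share this on both days. The gaps of cyclophilin and GAPDH overlapped between SE and HE on both days. For EEF1A1, whose 3' probe set lay below the 5' one, the difference was -3.27 to -3.11 in HE and -3.10 to -2.93 in SE on day 0, and it overlapped on day 7, at -3.06 to -2.94 in HE and -3.28 to -3.03 in SE. In blastocysts the 5' probe set of EIF4E was at the lowest value of the blastocyst arrays on 4 of 5 arrays, so its gap is known as a lower bound and was not compared. The EEF1A1 gap ran there from 1.41 to 2.03 in HE and from 2.07 to 2.36 in SE, and that of GAPDH from 4.97 to 5.11 and from 5.47 to 5.85, while that of cyclophilin overlapped. The part of these gaps in the differences between SE and HE was not tested.

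**Figure D5:**
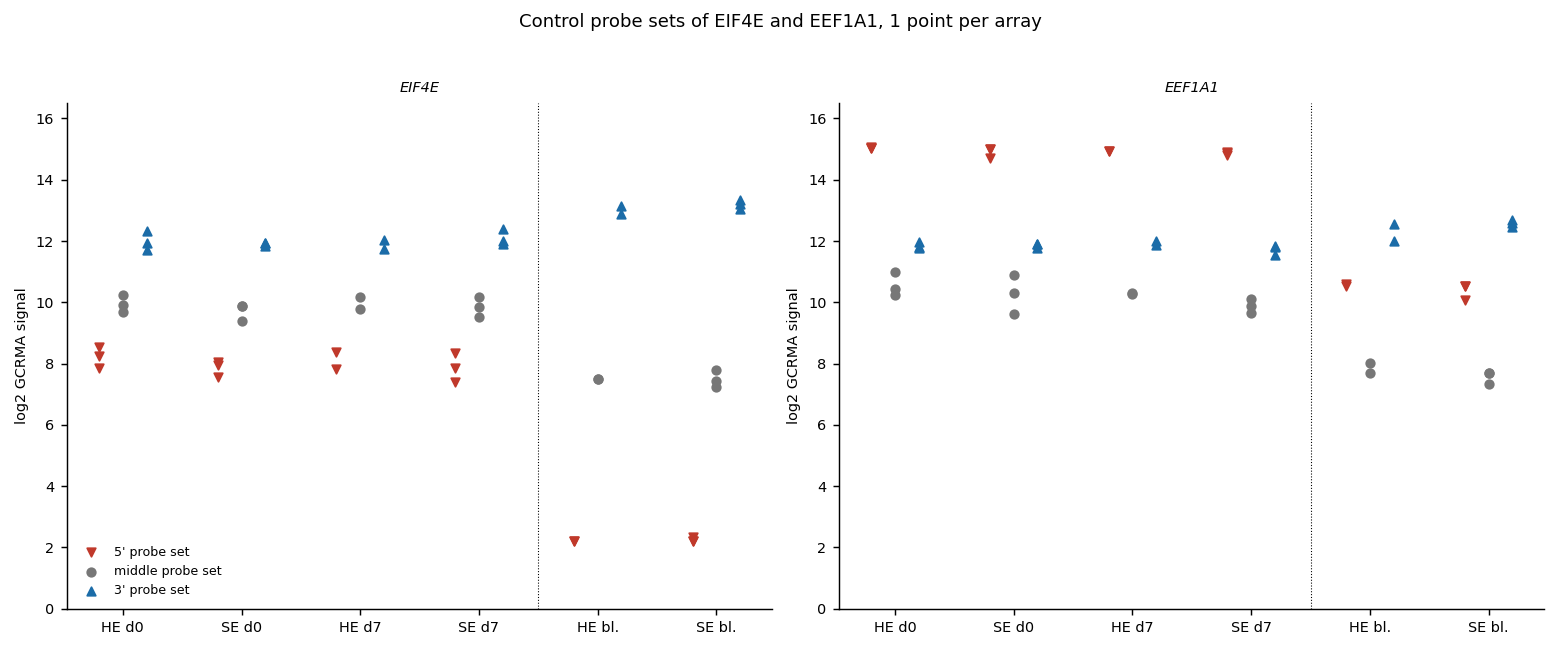
Log2 GCRMA signal of the 5', middle and 3' control probe sets of EIF4E (left) and EEF1A1 (right) on each array, by group (d0 and d7, endometrium; bl., blastocysts, right of the dotted line). In blastocysts the EIF4E 5' probe set lies between 2.20 and 2.34, while its 3' probe set lies between 12.88 and 13.35.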

How the data were processed

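RNA of each pool was amplified in 2 rounds from 15 ng and hybridised to 1 array, per the labels' protocols. The authors deposited 1 table of log2 values, which the submitters' processing notes credit to GCRMA and limma; the scale was inferred from the values, and no source used here names a genome build. Genes were named by the platform annotation, and 46 of 46 member gene numbers matched RefSeq (ARS-UCD2.0). limma 3.58.1 in R 4.3.3 was fitted to the 11 endometrium and the 5 blastocyst arrays separately, as these differ in distribution, with probe sets above 4 on at least 2 arrays, control probe sets left out, group means, and Benjamini-Hochberg adjustment over all probe sets kept, at 0.05. Standard errors are those of limma. The fit was tested on simulated data. Alternatives were the filter, the variance prior, array weights, a further quantile normalization, the mean of a gene's probe sets, the groups in the fit, a replicate block and each pool left out. Every member may be named; array values are given for the leading members by size or p in each comparison and role, and at most 3 genes per direction for other lists, by size of t. Members, lists and tests were chosen with earlier results of these data known.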

Additional observations from a re-analysis of the deposited data

Results flagged for a closer look

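The control probe sets of EIF4E, which no comparison used, read the 3' and the 5' part of 1 transcript. The gap between them was wider in SE than in HE endometrium by 0.27 (log2) on day 0 and by 0.45 on day 7, with no overlap between the groups on either day. The same gaps of cyclophilin and GAPDH overlapped on both days, and that of EEF1A1 on day 7. On day 0 the EEF1A1 value was higher in every SE pool, by 0.17, and in blastocysts those of EEF1A1 and GAPDH were, by 0.49 and 0.64, while cyclophilin overlapped there. EIF4E2 on its second probe set was lower in every SE pool than in any HE pool on day 0, by -0.28, and higher in every SE pool on day 7, by 0.46. The interaction of status and day for it was 0.74 (standard error 0.27, unadjusted p = 0.0213, adjusted p = 1.0 by limma). The first probe set of EIF4E2 did not share this reversal. It differed between SE and HE by 0.02 on day 0 and 0.03 on day 7, with overlap on both. Its interaction was 0.01 (unadjusted p = 0.946 by limma). EIF2S3 on its first probe set was lower in every SE pool of endometrium on day 0, by -0.21, and higher in every SE pool of blastocysts, by 0.066. Neither difference passed (adjusted p = 0.745 and 0.83 by limma), and the contrast between the tissues was not tested. The second probe set of EIF2S3 overlapped on day 0, with a difference of -0.10. In blastocysts it too was higher in every SE pool, at 11.01 to 11.12 against 10.94 and 10.89 in HE.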

How the results depend on the processing

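The count of members that changed between the days in HE was 25 and ran from 22 to 27 over 6 changes of filter, prior, weights, normalization and groups fitted, was 20 of 44 genes with probe sets averaged, and ran from 14 (without the second HE pool of day 7) to 26 with each pool left out. In SE it was 22 and ran from 17 to 30, 17 genes, and 17 to 22 in turn. Of these calls 11 in HE and 14 in SE held under all 18 settings run by probe set, among them EEF1E1, EIF3I, EIF2B1, EIF2B2, EIF2B3, EIF4A1 and EEF2K in both. Calls lost in more than 3 settings were EIF2D, EEF1AKMT3, EIF6 and 1 probe set of EIF4E2 in HE, and EIF4H, EIF4E3, EEF1B2, EIF4A2, EIF4EBP1 and EIF3M in SE. The counts for SE against HE on either day, in blastocysts and for the interaction were 0 in every setting. Whether replicate numbers pair the pools is not given in the labels. With group means removed, same-numbered HE and SE pools of day 0 correlated by 0.06, 0.24 and -0.07. Same-numbered pools of day 0 and day 7 correlated by -0.11 and -0.27 in HE and by -0.11, -0.22 and 0.12 in SE. So few values cannot decide the pairing. A replicate block left 19 calls in HE and 17 in SE, each among those without it. EIF4EBP1 in HE ran from -0.78 to 0.22 with a pool left out and turned to 0.22 without the second HE pool of day 7. EEF2K on its second probe set, 0.22 in SE against HE on day 0, ran from -0.088 (without the second SE pool of day 0) to 0.43 with a pool left out and was -0.047 with probe sets averaged; the cause was not tested. Groups of 2 and 3 pools limit all comparisons, and probes at the lowest value carry no order.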
